A study of Mus musculus with 6 samples.

Results

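Csf2, Il3 and Csf1 encode the hematopoietic growth factors GM-CSF, IL-3 and M-CSF, and they were followed here as 3 genes of the 17369 in a single-cell expression table of mouse T helper 9 (Th9) cells. They were taken by symbol and compared over cells, libraries, genotypes and deposited clusters. The cells were naive CD4 T cells from mouse spleen, polarized for 48 h in 3 ng/ml human TGF-beta, 20 ng/ml IL-4 and 20 ug/ml of an antibody to interferon-gamma, and purified on CD4 beads. There were 3 wild-type and 3 Cblb-/- libraries, the latter lacking CBL-B, a ubiquitin ligase that restrains T cell activation. The labels give no age, sex or strain, and they do not say whether the 3 libraries of a genotype came from separate mice or cultures, and the p-values therefore reflect differences among libraries that may be technical. Both genotypes received the same polarization, and no unpolarized or unstimulated cells were included in this comparison.

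GM-CSF is made by activated T cells and supports granulocytes, macrophages and dendritic cells. IL-3, also called multi-CSF, is made chiefly by activated T cells and acts on progenitors, mast cells and basophils. Both bind a receptor made of a specific alpha chain (Csf2ra or Il3ra) and the common beta chain (Csf2rb), which signals through JAK2 and STAT5. M-CSF, in contrast, binds the receptor tyrosine kinase Csf1r on monocytes and macrophages and is made by many cell types. Csf2 and Il3 sit side by side in the cytokine gene cluster that also holds Il13, Il4 and Il5, are induced through NFAT, AP-1 and NF-kappaB after T cell receptor signalling, and have short-lived transcripts with AU-rich elements. Csf1 lies on another chromosome.

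In mm10 with GENCODE M21 annotation, Csf2 (ENSMUSG00000018916) occupies chr11:54247271-54249667 on the minus strand and Il3 (ENSMUSG00000018914) chr11:54265303-54267277 on the same strand. The gap between them was 15.6 kb. Csf1 (ENSMUSG00000014599) occupies chr3:107741048-107760469, also on the minus strand. The antisense gene Gm12223 overlaps Csf2, is not in the table, and whether the counting used strand is not given in the sources used here, so reads of the pair cannot be told apart.

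The sequences just upstream of Csf2 and Il3 are shown because these neighbours share the regulatory history described above. They are the 250 bases before the RefSeq transcript start (GRCm38.p6), read 5′ to 3′ on the gene's strand. The Csf2 window is chr11:54249900-54250149 and lies 233 to 482 bases before the GENCODE start of that gene, and the Il3 window is chr11:54267280-54267529. Capitals mark matches on either strand to the motifs GGAAA, the core bound by NFAT factors, AGATAA, bound by the GATA family, TGTGGT, bound by RUNX factors, and the TATA box core TATAA. The first of these reads TTTCC on the other strand.
Csf2: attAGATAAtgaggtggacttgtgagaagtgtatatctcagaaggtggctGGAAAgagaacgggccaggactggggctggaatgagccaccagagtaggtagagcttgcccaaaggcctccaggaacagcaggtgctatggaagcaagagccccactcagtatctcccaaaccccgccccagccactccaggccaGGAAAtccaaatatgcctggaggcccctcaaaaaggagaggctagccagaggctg
Il3: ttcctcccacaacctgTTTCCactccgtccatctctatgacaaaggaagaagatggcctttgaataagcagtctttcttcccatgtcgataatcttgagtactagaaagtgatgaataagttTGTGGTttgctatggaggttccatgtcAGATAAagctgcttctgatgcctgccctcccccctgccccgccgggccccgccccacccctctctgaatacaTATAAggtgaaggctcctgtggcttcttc

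Csf2 held 2 GGAAA and 1 AGATAA matches, whereas Il3 held 1 GGAAA, 1 AGATAA, 1 TGTGGT and 1 TATAA match, the last of them 29 to 25 bases before the start. The Csf1 window (chr3:107760470-107760719) held 3 GGAAA matches and none of the others, and no window held TGANTCA (AP-1). These motifs are short and common: GGAAA occurred in 55.6% of 32851 promoter windows of this length, TATAA in 22.8%, TGTGGT in 14%, AGATAA in 9.99% and TGANTCA in 6.75%. None of the marked matches overlapped another. A match is a description of the letters only.

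In the annotated 3′ untranslated regions the AUUUA pentamers were counted, the core of the AU-rich element, written ATTTA in the GENCODE transcripts. The 317 bases of Csf2-201 held 9 of them (2.84 per 100 bases), the 101 bases of Il3-201 held 1 (0.99 per 100 bases) and the 2111 bases of Csf1-201 held 4 (0.189 per 100 bases). The match in Il3-201 lies close to the end of its annotated bases, and any sequence past that end was not counted. The counts therefore compare annotated ends only. The densest stretches of each gene, with ATTTA in capitals, begin at base 230 of the region in Csf2, base 68 in Il3 and base 2021 in Csf1.
Csf2-201: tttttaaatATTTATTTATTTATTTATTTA
Il3-201: ctttatgccatcaaatgtcttatcaATTTA
Csf1-201: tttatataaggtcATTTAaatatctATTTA

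The table held 27258 cells (12755 wild type, 14503 knockout), with 3902 (A), 4301 (B) and 4552 (C) cells in the wild-type libraries and 3423 (D), 5666 (E) and 5414 (F) in the knockout libraries. Raw depth was 149381789 to 229387950 unique molecular identifiers (UMIs) per library, with medians of 35573 to 39628 per cell. The values themselves were corrected counts per gene and cell, adjusted by the authors to a common depth. A level is given either as the share of cells with a value of at least 1, called detected, or as parts per 1000000 (ppm) of a library's summed corrected counts. The CD4 T cell markers (6 genes, Cd3e among them) summed to 1641 to 1684 ppm in wild-type and 1619 to 1663 ppm in knockout libraries, and the 7 mast cell and basophil markers in the table to at most 3.91 ppm in any library. Other marker sums were higher in knockout libraries: CD8 T and NK cells, 6.14 to 7.53 against 10.9 to 12.4 ppm, B cells, 2.91 to 3.51 against 5.23 to 9.04 ppm, dendritic cells, 0.665 to 0.849 against 1.55 to 1.69 ppm, and macrophages and monocytes, 1.29 to 1.31 against 1.38 to 1.61 ppm. Most of these sums came from 1 gene each (Cd8b1, Cd79b, Zbtb46 and Cd68), while Cd8a stayed at or below 0.26 ppm. The part of such cells in the results was not tested. Cblb transcript was 30.9 to 32.6 ppm in wild-type and 15 to 18.4 ppm in knockout libraries, so its 3′ counts were lower but not absent. Barcodes shared by libraries numbered 76 and touched 152 cells.

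Csf2 was detected in few wild-type and many knockout cells. It was found in 1.05% of cells in A, 0.86% in B and 0.725% in C, against 23.7% in D, 12.4% in E and 14.2% in F. The genotypes did not overlap, and D stood above the other knockout libraries. The 95% exact (Clopper-Pearson) intervals, which cover counting error only, ran from 0.5 to 1.42% over the wild-type libraries and from 11.6 to 25.2% over the knockout libraries, with those of E and F overlapping narrowly. Mean shares were 0.879 ± 0.164% and 16.8 ± 6.07% (SD, n = 3 each; exact two-sided permutation p = 0.1, the smallest that 3 against 3 can give). Summed level moved with the share: 1.24, 0.39 and 0.664 ppm in A, B and C against 38.1, 15.5 and 17 ppm in D, E and F. The ratio of mean levels was 30.8, and limma on log2(ppm + 1) gave a difference of 3.71 (SE 0.32, Benjamini-Hochberg adjusted p = 0.000722), a scale that understates low genes. The gene passed the filter of a mean of 5 ppm only through its knockout libraries. Of 8475 genes tested, 11.0% were called higher and in 19.7% every knockout library lay above every wild-type library, which is the background for calls on these genes.

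Il3 was rarer, and its difference between genotypes was uneven. Shares were 0.461% in A, 0.186% in B and 0.417% in C, against 4.59% in D, 0.547% in E and 2.59% in F. Groups did not overlap, yet E, with 31 detected cells, lay just above A, with 18, and their intervals overlapped (0.372 to 0.776% and 0.274 to 0.728%). Mean shares were 0.355 ± 0.148% in wild-type and 2.57 ± 2.02% in knockout libraries (n = 3 each; exact permutation p = 0.1). In ppm, Il3 was 0.242, 0.0549 and 0.185 in wild type and 8.34, 0.377 and 2.74 in knockout, a log2(ppm + 1) difference of 1.65. It fell under the 5 ppm filter, and with a 1 ppm filter limma did not call it (adjusted p = 0.0726). Leaving out D lowered the log2 difference to 0.97.

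Csf1 was widespread in both genotypes and rose by less. It was detected in 16.2% of cells in A, 16.1% in B and 16.2% in C, against 25.5% in D, 29.5% in E and 20.3% in F. Wild-type libraries were nearly equal (SD 0.0852 percentage points), and all knockout libraries lay above them, but here E was highest and F lowest. Mean levels were 9.42 ± 0.214 and 18.1 ± 4.61 ppm (n = 3 each), which is 0.85 apart on the log2 scale (limma, SE 0.16, adjusted p = 0.0097). The order of knockout libraries was therefore D, F, E for Csf2 and Il3 and E, D, F for Csf1.

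**Figure D1:**
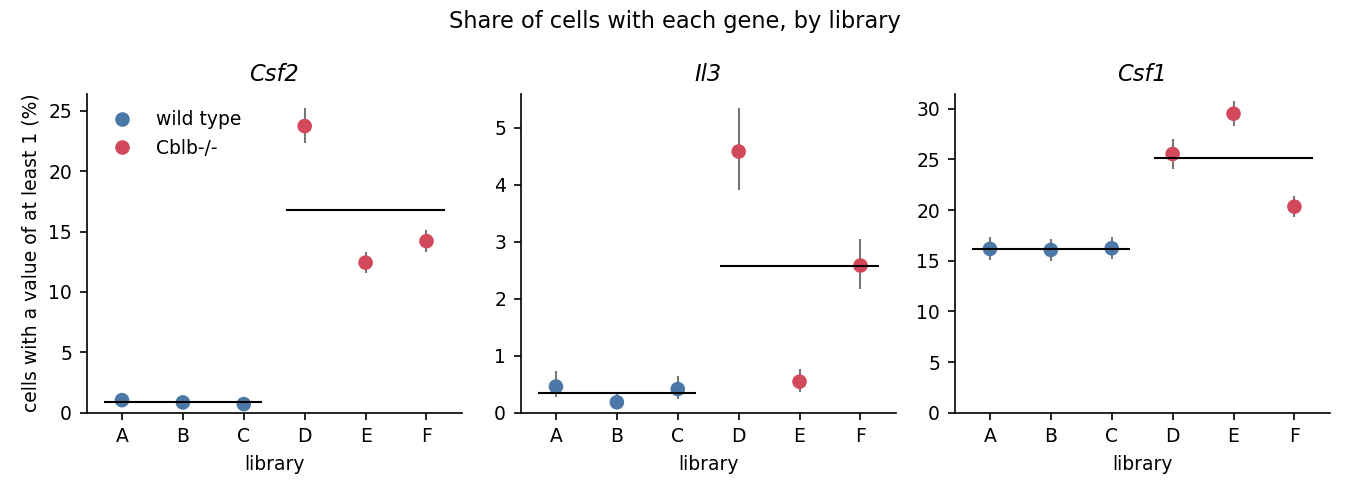
Share of cells with a value of at least 1 (percent, y axis, scaled per gene) in wild-type libraries A to C (blue) and Cblb-/- libraries D to F (red); bars are 95% exact binomial intervals and black lines are group means. Csf2 runs from 0.725 to 1.05% in wild type and from 12.4 to 23.7% in knockout, Il3 of library E lies near the wild-type libraries, and Csf1 exceeds 16% everywhere.

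The 3 genes also differed in how their counts were spread over cells. In detected cells the mean Csf2 value was 4.49, 1.73 and 3.48 in A, B and C, and 6.14, 4.73 and 4.57 in D, E and F. All knockout values were above all wild-type values, although A and F were close. Cells with a Csf2 value of at least 10 numbered 3, 0 and 3 in wild type and 123, 69 and 84 in knockout, which is 3.59%, 1.22% and 1.55% of the knockout cells. The highest single value was 201, in D. For Il3, no wild-type cell reached 10, which at 3 counts of the cells allows a share of up to 0.0769% in A (exact upper bound 0.0945%), while 27, 1 and 13 knockout cells did. The 1% of cells with most Il3 held 79.9% of its counts in D and 84% in F, and the same fraction held 37.9 to 53.1% of Csf2 counts in the knockout libraries and 16.9 to 24.7% of Csf1 counts in all libraries. This measure depends on how many cells have the gene: it was 98.9 to 100% for Csf2 in wild type and 100% for Il3 in E. For Il3, detected in at most 4.59% of cells, it cannot tell rarity from concentration. In D, where Csf2 and Csf1 were detected in 23.7% and 25.5% of cells, it was 37.9% and 18.2%. There Csf2 counts were held by fewer cells than Csf1 counts. Detected cells were deeper: in D the median raw depth was 43735 UMIs in cells with Csf2 and 38622 in cells without. Within cells near the median depth, Csf2 was still found in 21.7%, 11.7% and 12.5% of D, E and F, against 0.4 to 1.18% in wild type.

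Clusters were used as the authors numbered them, and 6 of 7 had enough cells in every library for a genotype comparison. By their leading cytokines, as means over the 6 libraries of both genotypes, cluster 0 was high in Il2 and cluster 2 in Il9. Cluster 3 was high in Ifng, Ccl3 and Ccl4, and cluster 4 in Ccl20 and Il2. Ifng was 9.58 ppm in the whole of F and at most 1.01 ppm in any other library, so its mean in cluster 3 may rest mainly on F. Mean Il2 was 572 ppm in cluster 0 but 1268 ppm in cluster 3 and 1147 ppm in cluster 4. Cluster 3 was also high in Il13, at 229 ppm against 32.5 ppm in other cells, again over both genotypes. Whole libraries had 1.13 to 2.1 ppm of Il13 in wild type and 14.9 to 139 ppm in knockout. Its level by genotype within the cluster is not given here. No cluster consists of cells known to lack Csf2, so the share set by free RNA was not measured, and doublets were not treated. Sizes of clusters were not compared.

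Csf2 was higher in knockout cells of every one of these 6 clusters. Cluster 3 had 1.72%, 1.83% and 0.759% of wild-type cells with Csf2 and 37.7%, 14% and 37.5% of knockout cells, which limma put at 4.51 on the log2 scale (SE 0.63, adjusted p = 0.00407). In cluster 4 the shares were 2.21%, 2.68% and 0.855% against 31.8%, 14.7% and 21.7%, or 4.55 on the log2 scale (limma, SE 0.25, adjusted p = 5.05e-08). Cluster 1, the lowest by share among the larger clusters, still went from 0.892%, 0.605% and 0.296% to 16.7%, 9.92% and 9.38% (log2 difference 3.10; limma adjusted p = 0.00106). Clusters 0 and 2 gave differences of 3.84 and 3.13 (limma adjusted p = 0.00125 and 0.000644), and cluster 5 gave 2.99 but fell under the filter. All 5 tests called Csf2, which passed the filter in each only through the knockout libraries (wild-type means of 0.365 to 3.01 ppm). The background of genes called higher was 9.06% in cluster 0, 9.22% in cluster 1, 8.39% in cluster 2, 4.54% in cluster 3, 5.33% in cluster 4 and 4.9% in cluster 5. Every knockout library lay above every wild-type library for Csf2 in all 6 clusters, as it did for 16.5%, 17.8%, 14.8%, 12.7%, 11.6% and 13.3% of genes in clusters 0 to 5. Without D, Csf2 in cluster 1 fell under the filter. An interaction test of each cluster against the remaining cells called neither Csf2 nor Csf1 in any cluster where they passed the filter, and Il3 passed it in none (of all genes, 0.143% were called in cluster 0, 0.024% in cluster 1 and 0.0% in the others), and the nearest was Csf2 in cluster 4, at 0.90 above the other cells (limma, unadjusted p = 0.00341, adjusted p = 0.175).

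Il3 was most frequent in cluster 3. There it was detected in 2.01%, 0.783% and 1.27% of wild-type cells and in 27.9% (17 of 61 cells) of D, 4.3% (8 of 186) of E and 21.1% (27 of 128) of F. Cluster 3 held 1.78%, 3.28% and 2.36% of the knockout cells but 26.6%, 50.6% and 38.4% of their Il3 counts, while the much larger cluster 0 held 65.7%, 19.8% and 45.3%. On the log2 scale the difference was 4.35 (limma, SE 0.81, adjusted p = 0.0117), for a gene that passed the filter only through the knockout libraries (means of 0.718 and 58.3 ppm). It was not called without B, without C or without a filter on low values (adjusted p = 0.056, 0.0501 and 0.054). In cluster 0, Il3 was found in 5.57%, 0.341% and 2.28% of D, E and F, and E lay within the wild-type range of 0.22 to 0.481%. In cluster 4 no wild-type cell had Il3, which at 3 counts of the cells allows shares of up to 2.21%, 2.68% and 2.56%, and 10.3%, 1.13% and 3.48% of knockout cells did. In cluster 5 only E had any (0.676%). Cluster 3 was the only cluster where Il3 passed the 5 ppm filter.

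Csf1 had another order. Its highest shares were in cluster 4, with 49.3%, 34.8% and 35.9% in wild type and 53.8%, 58.9% and 41.4% in knockout, groups that overlapped (log2 difference 0.58; limma adjusted p = 0.0578). It was called higher in cluster 3 (log2 difference 0.84, SE 0.14, limma adjusted p = 0.00774) and cluster 5 (1.08, SE 0.20, limma adjusted p = 0.00827). In cluster 0, where 24.9 to 25.7% of wild-type cells had it, the difference was 0.54 (limma adjusted p = 0.0813), and in clusters 1 and 2 it fell under the filter. Without F, the tests in clusters 0 and 4 passed (limma adjusted p = 0.00384 and 0.00572), and without A the test in cluster 4 did (adjusted p = 0.0322). The Il9-rich cluster 2 had low Csf1 shares, 4.82 to 6.55% in wild type and 10 to 14.4% in knockout, as did cluster 1, which was lower still in F (8.11%). Weighting every library to the same cluster makeup gave an overall log2 difference of 0.59 for Csf1, 3.74 for Csf2 and 1.99 for Il3.

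The smallest cluster, number 6, had 24 cells (6 wild type, 18 knockout) and was left out of the genotype tests. Cpa3, Ms4a2 and Gata2, markers of mast cells and basophils, were each detected in at least 12 of these cells, but so were Cd3e, Cd4 and Trac. In these cells Csf2 was detected in 1, Csf1 in 5 and Il3 in 0, which allows a share of up to 12.5%.

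**Figure D2:**
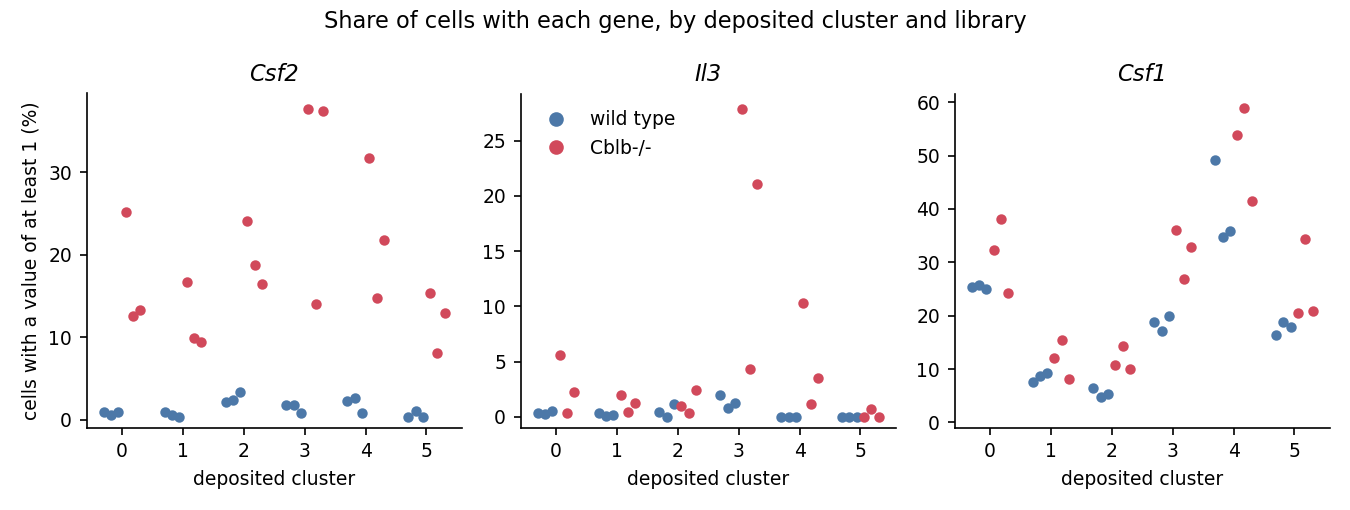
Share of cells with a value of at least 1 (percent, y axis) in deposited clusters 0 to 5 (x axis), with 1 point per library, A to F from left to right, in blue for wild type and red for Cblb-/-. Csf2 is separated by genotype in every cluster, Il3 reaches 27.9% and 21.1% in cluster 3 of D and F, and Csf1 is highest in cluster 4.

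Cells with Csf2 and cells with Il3 overlapped more than independent detection would give in A, D and F. E was near that expectation, C had 1 such cell and B had 0. Cells with both numbered 6, 0 and 1 in A, B and C and 91, 5 and 50 in D, E and F, where independent detection would give 0.189, 0.0688 and 0.138, and 37.2, 3.85 and 19.9. The log2 odds ratio of detection in the same cell was 5.82, 2.74 and 3.49 in A, B and C and 2.28, 0.55 and 1.82 in D, E and F, where B has no cell with both, so that the 0.5 added to each count alone sets its value and sign. In the other 5 libraries all values were above 0 (mean 2.79, SD 1.99; exact two-sided sign-flip permutation p = 0.0625, the smallest that 5 libraries can give; adjusted over 3 pairs p = 0.0938). Keeping only libraries with a cell of both genes fixes the signs of A and C, where fewer than 1 was expected. This test therefore cannot decide whether the genes overlap. With B included the mean was 2.78 and the p 0.0312 in the same exact test, which counts a sign fixed by the addition. Between genotypes an exact permutation test of the 6 values gave p = 0.1, the smallest that 3 against 3 can give. It cannot decide whether the genotypes differ, since only 7 wild-type cells, 6 of them in A, had both genes and the addition sets the value of B. Seen from Il3, 58% of Il3 cells in D, 16.1% in E and 35.7% in F also had Csf2. From the other side, 11.2%, 0.71% and 6.5% of Csf2 cells had Il3. Il3 cells of D and F were thus often Csf2 cells, and Csf2 cells were mostly without Il3.

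Csf1 was tied to Csf2 more weakly. Cells with both numbered 10, 7 and 7 in wild type and 250, 249 and 197 in knockout, and the log2 odds ratios of 0.80, 0.36, 0.55, 0.50, 0.45 and 0.51 from A to F were all above 0 (mean 0.53, SD 0.15; exact sign-flip permutation p = 0.0312, adjusted p = 0.0938 when B is left out of the Csf2 and Il3 pair). For Il3 and Csf1 the values were 0.69, 1.01, -0.44, 0.48, -0.45 and 0.18, on both sides of 0 (exact sign-flip permutation p = 0.344). Since deeper cells detect more of every gene, the same ratios were taken in cells near the median depth: 0.31 for Csf2 with Csf1 (exact sign-flip permutation, adjusted p = 0.141) and 3.10 for Csf2 with Il3, where B and C then had no cell with both and the addition sets their values. Within clusters (Mantel-Haenszel) they were 2.42 for Csf2 with Il3, over the 5 libraries other than B, and 0.45 for Csf2 with Csf1 (exact sign-flip permutation, adjusted p = 0.0938 for both). The limit on the signs of A and C holds for the first of these too. Cells with all 3 genes numbered 31, 3 and 13 in D, E and F.

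**Figure D3:**
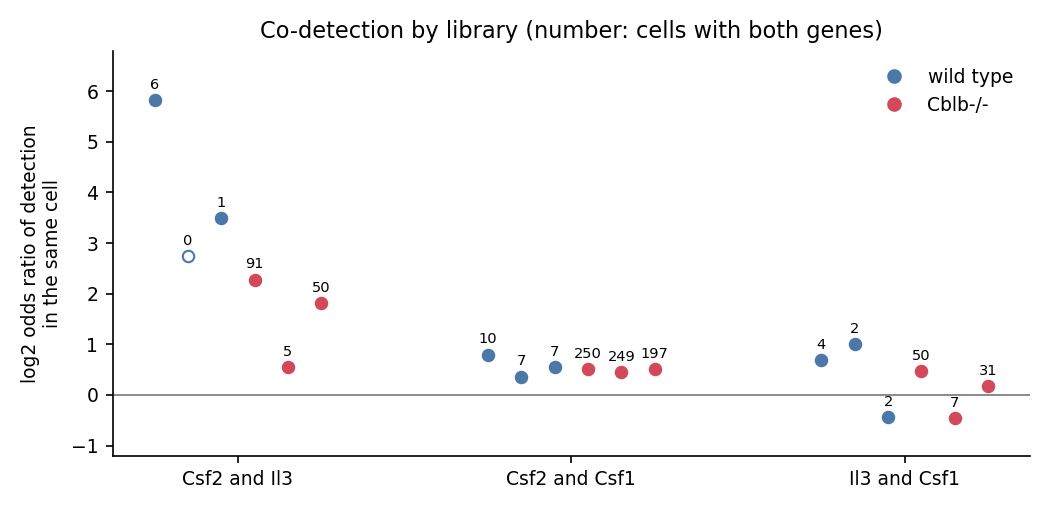
Log2 odds ratio of detecting both genes of a pair in the same cell (y axis) for each library, A to F from left to right, in blue for wild type and red for Cblb-/-; the number is the count of cells with both, and an open point has none. Csf2 with Il3 lies at 0.55 to 5.82 in the 5 libraries with such cells (the open point, B, is set by the 0.5 added to each count), Csf2 with Csf1 lies between 0.36 and 0.80, and Il3 with Csf1 falls on both sides of 0.

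The genes around Csf2 and Il3 were examined because the 2 cytokine genes are neighbours. Of 17 genes of a fixed list in the table, with starts from 730 kb below the Csf2 start to 538 kb above it, 10 were tested, 6 were called higher and 1 lower (median log2 difference 0.40; over all genes tested 11.0% were higher, 13.4% lower and the median was -0.01). The 2 largest were Il13 (4.28; limma adjusted p = 0.00526), the type 2 cytokine gene 615 kb away towards lower coordinates, and Csf2 itself. Between them, Irf1 rose by 0.56 and Rad50 by 0.27 (limma adjusted p = 0.0101 and 0.0218), and Pdlim4 did not pass (-0.11). Sept8 and Kif3a, on the far side of Il13, also passed, at 0.56 and 0.52. The 6 genes called higher include Csf2 itself, Il13 and Sept8, with wild-type means of 0.765, 1.69 and 3.97 ppm. These passed the filter only through the knockout libraries, which raises the share called higher. Past Il3 and Acsl6, Fnip1 (-0.17) was not called and Rapgef6 fell by 0.31 (limma adjusted p = 0.0153). The list has 7 genes under the filter, with Il3, Il4 and Il5 among them. P4ha2, a collagen prolyl hydroxylase gene 116 kb from Csf2, was 0.855, 0.695 and 1.1 ppm in wild type and 6.62, 1.22 and 5.64 ppm in knockout, a log2 difference of 1.36 with no test. Acsl6, the acyl-CoA synthetase gene next to Il3, averaged 0.582 ppm over wild-type and 0.796 ppm over knockout libraries.

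Acsl6 was more frequent in Il3 cells than in the rest, although most cells with Acsl6 had no Il3. It was detected in 26.1% of Il3 cells in D, 19.4% in E (6 of 31 cells) and 17.1% in F, and in 3.34%, 1.67% and 1.8% of the cells without Il3. The share was higher in Il3 cells in all 3 libraries. In Csf2 cells Acsl6 was found in 8.62%, 3.41% and 5.72%, against 3.06%, 1.53% and 1.61% of cells without. P4ha2 was detected in 27.3%, 8.81% and 24.8% of Csf2 cells and 13.1%, 3.2% and 12.8% of the rest. Its log2 difference was 1.01 (limma adjusted p = 5.77e-08). Over whole knockout libraries P4ha2 averaged 4.49 ppm, under the filter, so it passed here only through the Csf2 cells.

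**Figure D4:**
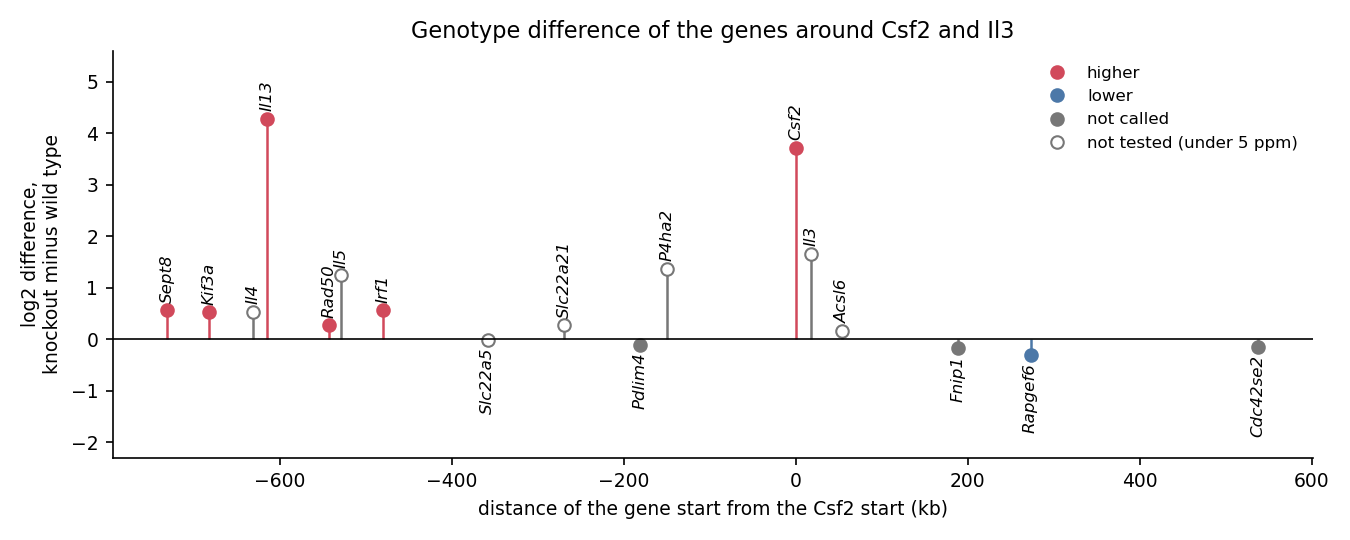
Log2 difference in log2(ppm + 1), knockout minus wild type (y axis), for each gene of the list by the distance of its start from that of Csf2 (kb, x axis); filled points were tested and open points fell under 5 ppm. Il13 at 4.28 and Csf2 at 3.71 stand far above the genes between them.

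What else the producing cells expressed was asked by comparing, inside each library, cells with a gene against cells without it. For Csf2 this was done in the 3 knockout libraries (812, 704 and 769 cells). It called 1709 of 8566 genes higher and 964 lower, which is 20.0% and 11.3%, and in cells near the median depth 717 and 364. The 10 largest rises included the cytokine and chemokine genes Il13 (27.3 to 255 ppm, log2 difference 3.14, SE 0.04), the CCR4 ligand Ccl22 (4.26 to 41.3 ppm, 2.96), Il3 (2.19), Ccl3 (1.95) and Ccl1 (1.52), all called by limma. The rise of Il3 was 0.32 in its lowest library and 3.33 in its highest, and Ccl1 ranged likewise from 0.13 to 3.32. Ccl1 was not called in cells near the median depth (adjusted p = 0.157) or with all 6 libraries (adjusted p = 0.061), and Il3 fell under the filter without D. Cd70, a costimulatory ligand of the TNF family, rose from 8.3 to 36.3 ppm with near equal differences in all 3 libraries (1.94 to 2.04). Il4i1, an amino acid oxidase, Idi2, Cyr61, a matricellular protein, and Ccdc184 rose by 1.63 to 2.06. Of these 10 genes, Il13, Cd70 and Ccl3 alone had 5 ppm or more in cells without Csf2, and the others passed the filter through the Csf2 cells.

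The largest fall in Csf2 cells was that of Foxp3. Foxp3, which defines the regulatory T cell lineage, was 7.06 ppm in cells without Csf2 and 3.13 ppm in cells with it (log2 difference -0.98; limma adjusted p = 3.34e-06). The transcription factor gene Maf (-0.87), the aquaglyceroporin gene Aqp3 (-0.85), Nt5e, which encodes CD73 (-0.78), and Ctla2a (-0.72) were the other 4 largest falls, each in all 3 libraries. With all 6 libraries, Maf was not called (adjusted p = 0.0649). Foxp3 passed the 5 ppm filter only through the cells without Csf2. It fell under that filter, and was not tested, near the median depth, at a minimum Csf2 value of 3, at equal cluster makeup and without E.

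Il3 cells shared part of this pattern, with far fewer calls: 213 genes higher and 80 lower of 8556 (2.49% and 0.935%), from 157, 31 and 140 cells. Ccl3 led with 14.7 to 232 ppm (log2 difference 3.84, SE 0.09; limma adjusted p = 1.8e-07), ahead of Cyr61 (3.64), Il13 (3.17), Ccl1 (2.95), Ccl4 (2.94) and Csf2 (2.33). The chemokine genes Xcl1 (2.17) and Cxcl2 (2.15), the interferon-induced Ifitm3 (2.11) and the receptor partner Ramp3 (1.96) completed the 10 largest. Maf (-1.62), Aqp3 (-1.21), Ctla2a (-1.18), Gbp2 (-1.09) and Myo6 (-1.07) fell most. Cyr61, Ccl1, Cxcl2 and Ramp3 had 2.53, 3.56, 1.71 and 3.28 ppm in cells without Il3 and passed the 5 ppm filter only through the Il3 cells. Maf and Myo6 had 4.73 and 3.39 ppm in Il3 cells and passed it only through the cells without Il3. Ccl3 and Ccl4 also mark cluster 3, where Il3 was most frequent. In cells near the median depth, where 68, 9 and 64 Il3 cells were left, limma called 4 genes higher and 0 lower, and Ccl3 stood at 3.38 (adjusted p = 0.0771). Without E, the counts were 792 and 534. In single cells, Ccl3 was detected in 40.8%, 54.8% and 45% of Il3 cells and 9.34%, 12.7% and 11.9% of the rest, and Cyr61 in 37.6%, 19.4% and 34.3% against 4.72%, 2.29% and 5.65%.

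Csf1 cells formed a different set, and were numerous enough for all 6 libraries (631 to 1672 cells each). Here 3010 of 8518 genes were higher and 1527 lower (35.3% and 17.9%), and 1787 were higher near the median depth. The CCR6 ligand Ccl20 rose most, from 32.1 to 103 ppm (log2 difference 1.71, SE 0.07; limma adjusted p = 1.09e-10), followed by Edn1, the gene of endothelin-1 (1.37), Tanc2 (1.28), Cib2 (1.26) and Igfbp7 (1.25). Kcnk10, Gsn (gelsolin), Rnd3, Pou2af1 and Bdh2 rose by 1.14 to 1.23. Tanc2, Cib2, Rnd3 and Pou2af1 had 3.94, 4.24, 3.35 and 4.42 ppm in cells without Csf1 and passed the 5 ppm filter only through the Csf1 cells. Il9, the cytokine that names Th9 cells, fell most: 554 ppm in cells without Csf1 and 205 ppm in cells with it (-1.54, SE 0.08; limma adjusted p = 2.07e-09). Sgk1 (-1.19), Batf3 (-1.05), Nppc (-0.94) and Socs2 (-0.94) came next. Sgk1 and Nppc had 3.65 and 4.63 ppm in Csf1 cells and passed the filter only through the cells without Csf1. In D, E and F, Il9 was detected in 61.2%, 52.5% and 82.9% of Csf1 cells against 77.4%, 68.1% and 87.9% of the rest, and Ccl20 in 37.8%, 38.1% and 44.1% against 18.1%, 21.4% and 29.3%. Csf2 was 0.32 higher in Csf1 cells (limma adjusted p = 0.0463), a call lost near the median depth (0.03), at equal cluster makeup (0.24) and without B, C, D or F (0.19 to 0.35).

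Over the fixed list of other T cell cytokines, 14 of 18 tested were higher and 2 lower in Csf2 cells (median 0.75; over all genes 20.0%, 11.3% and a median of 0.02), and 10 of 17 higher and 1 lower near the median depth. Il2, the T cell growth factor, rose by 0.99, Ccl20 by 1.03, Ccl4 by 1.33 and Il9 by 0.58, while the lymphotoxin genes Lta (-0.20) and Ltb (-0.40) fell. The share of cells with Il9 differed little: it was 70.6%, 63.1% and 87% of Csf2 cells in D, E and F, and 74.1%, 63.6% and 86.9% of the rest. In Il3 cells 8 of 22 were higher and 0 lower (median 0.81; over all genes 2.49%, 0.935% and a median of -0.00), with Il2 at 1.66 and the RANK ligand gene Tnfsf11 at 0.95. Il9 (-0.41) and Ccl22 (-1.13) were not called there (limma adjusted p = 0.647 and 0.427). Between genotypes, 17 genes of this list passed the filter. Further genes among the 18 and 22 passed it only through the Csf2 or Il3 cells, which can raise the shares and medians given. Ccl22, at 4.26 ppm in cells without Csf2, also passed only through the Csf2 cells in that contrast. In Csf1 cells 8 of 17 were higher and 6 lower (median 0.15; over all genes 35.3%, 17.9% and a median of 0.03), the falls being Il9, Lta (-0.58), Lif (-0.43), Ltb (-0.28), Osm (-0.28) and Flt3l (-0.16). Il13 was not called in Csf1 cells (-0.22; limma adjusted p = 0.27).

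**Figure D5:**
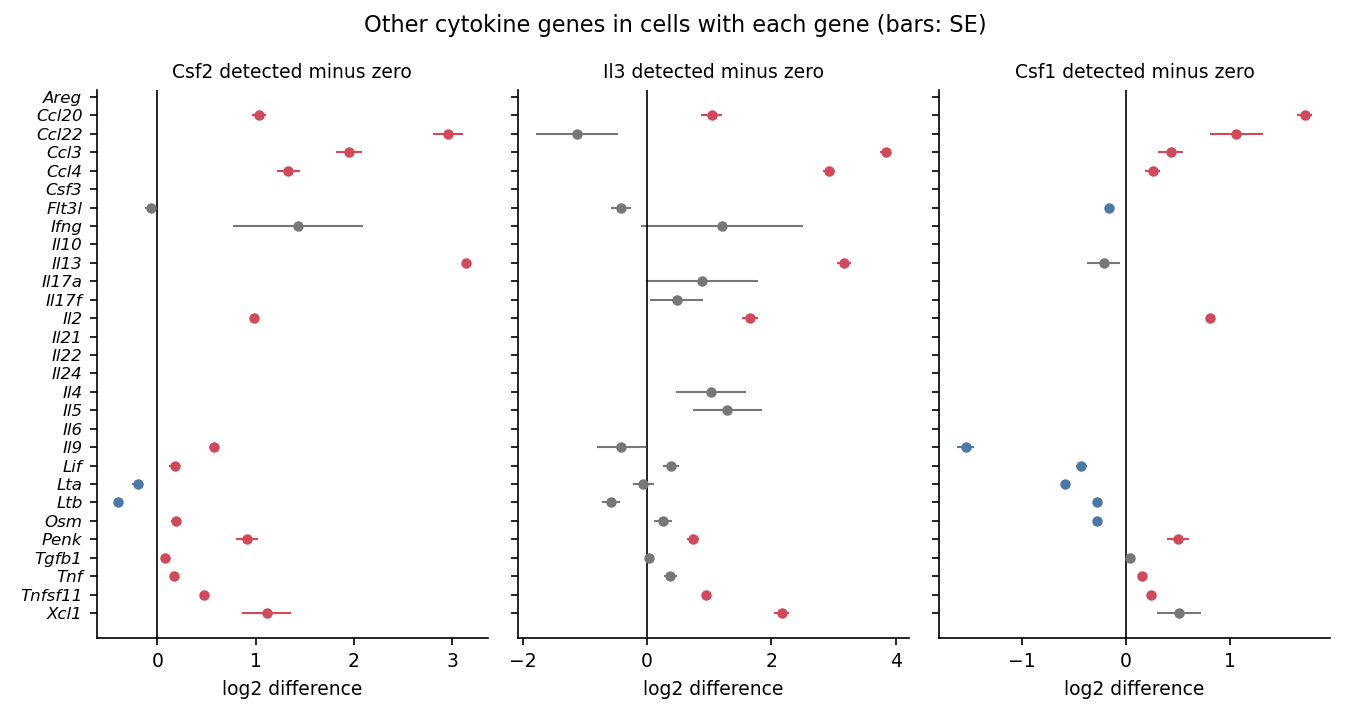
Log2 difference in log2(ppm + 1) of other cytokine genes (y axis) between cells with and without Csf2, Il3 or Csf1 in the same library; bars are SE, red is higher and blue lower at a limma adjusted p of 0.05, and grey is not called. Il13 lies above 3 for Csf2 and Il3 and near 0 for Csf1, and Il9 is 0.58 for Csf2 and -1.54 for Csf1.

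Likeness across single cells was measured within clusters. The measure was Pearson's r of log2(value + 1) over the cells of a library after subtracting the mean of each cluster, averaged over the 3 knockout libraries (14503 cells, which share library and depth). It was computed for 11931 genes and is given as a description. Csf2 was most like Il13 (0.36), Cd70 (0.331), Cst3 (0.271), Il4i1 (0.24) and Idi2 (0.225), and its values with Il3 and Csf1 were 0.181 and 0.0532. Cd70 was detected in 39.8%, 44.2% and 40.1% of Csf2 cells and 14.9%, 16.8% and 16.9% of the rest. Il3 was most like Cyr61 (0.275), Acsl6 (0.208), Il13 (0.184), Csf2 (0.181) and Ccl3 (0.178). These Il3 values were uneven: in that order they were 0.163, 0.165, 0.0775, 0.0272 and 0.0721 in E and 0.42, 0.259, 0.261, 0.309 and 0.239 in D. Csf1 was most like Gsn (0.243), Bdh2 (0.218), Edn1 (0.216), Filip1l (0.209) and Sec11c (0.2). In D, E and F, Gsn was found in 57%, 41.7% and 59% of Csf1 cells and 29.4%, 22.9% and 36.5% of the rest. Csf2 and Il3 thus had Il13 in common among their 5 nearest genes, and Csf1 shared none with either.

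The receptors were next compared between genotypes. Of 6 receptor genes in the table, 2 passed the filter. Il3ra, the IL-3 alpha chain, rose from 4.27 to 7.17 ppm (log2 difference 0.62, SE 0.12; limma adjusted p = 0.00934), and Csf2ra, the GM-CSF alpha chain, was 6.35 and 7.99 ppm (0.29; adjusted p = 0.0665). Il3ra passed the 5 ppm filter only through the knockout libraries. The beta chain genes were nearly confined to the 24 cells of cluster 6, which held 88.8% of the summed Csf2rb counts and 92.1% of those of Csf2rb2. Csf1r was detected in 39 cells of the whole table. Signalling genes below the beta chain had 6 of 17 tested higher and 0 lower (median 0.04), beside 11.0% and 13.4% of all genes. Those 6 were Socs3 (1.44) and Socs1 (0.76), feedback inhibitors of cytokine receptors, Jak2 (0.67; 97.3 to 156 ppm), the survival gene Bcl2l1 (0.36), Stat5a (0.33) and the inhibitor Cish (0.17). Of the 6, Socs3 (2.07 to 8.21 ppm) passed the filter only through the knockout libraries. Many other cytokine receptors share these signalling genes.

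Among 28 tested regulators of Csf2 and Il3 in T cells, 16 were higher and 1 lower in knockout libraries (median 0.33, beside 11.0% higher, 13.4% lower and a median of -0.01 over all genes). AP-1 and BATF family genes were among them, with Fosl2 going from 5.71 to 17.7 ppm (log2 difference 1.40, SE 0.25; limma adjusted p = 0.00845), Batf3 at 0.97, Batf at 0.81 and Junb at 0.69. Stat4 (1.01), Rora (0.82), Nfkb2 (0.76) and Bhlhe40 (0.69), a transcription factor gene needed for GM-CSF production in T cells, also rose. Fos was called higher too (3.84 to 7.45 ppm), but passed the filter only through the knockout libraries. Nfatc1 and Nfatc2 did not pass (-0.04 and 0.19; limma adjusted p = 0.712 and 0.327), and Ikzf1 fell by 0.20 (adjusted p = 0.0146). Within knockout libraries, 21 of 28 were higher and 6 lower in Csf2 cells (20.0% and 11.3% of all genes), the rises including Fos (0.61), Stat4 (0.44), Nr4a1 (0.43), Nfkb2 (0.35) and Bhlhe40 (0.32). Near the median depth these counts were 15 and 3. In Il3 cells 5 were higher and 2 lower (2.49% and 0.935% of all genes), with Nr4a1 at 0.86, Fosl2 at 0.69 and Bhlhe40 at 0.50, and near the median depth 0 were called. In Csf1 cells 10 were higher, a share close to the 35.3% of all genes, and 9 lower (17.9% of all genes), with Runx1 at 0.42 and Batf3 at -1.05.

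The 12 RNA turnover factors that act on AU-rich or stem-loop elements, such as those shown for Csf2, were all tested. In knockout libraries 0 were higher and 4 lower (median -0.08, beside 11.0% higher and 13.4% lower over all genes): Hnrnpd, which encodes AUF1, fell by 0.55 (322 to 220 ppm; limma adjusted p = 0.00147), Elavl1, which encodes the stabilizing protein HuR, by 0.26, Tial1 by 0.19 and Khsrp by 0.17. Zfp36, which encodes the decay factor tristetraprolin, and Zc3h12a, the gene of the RNase regnase-1, were not called (-0.11 and 0.01; limma adjusted p = 0.288 and 0.866). In Csf2 cells 0 were higher and 5 lower (20.0% and 11.3% of all genes), in Il3 cells 0 and 0 (2.49% and 0.935%), and in Csf1 cells 5 and 2 (35.3% and 17.9%). Of the other cytokines compared between genotypes, 10 of 17 tested were higher and 2 lower in knockout libraries (median 0.38, beside the same 11.0% and 13.4% of all genes). Among the 10, Il13 and Ccl22 (wild-type means of 1.69 and 0.248 ppm) passed the filter only through the knockout libraries. The falls were Ltb (-0.33) and Ccl4 (-0.76; 120 to 70.5 ppm), so Ccl4 was lower in knockout libraries as a whole and higher in their Il3 cells.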

How the data were processed

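The genes and lists were chosen with earlier results of these data known. Per the file headers, the score values are counts corrected by sctransform, which the authors computed and deposited. The deposited table also gives, per the file headers, each cell's raw UMI count and its mitochondrial percent (medians 4.46 to 5.03%, at most 15.2%). The lowest raw total was 15006, so cells had been filtered before deposit. The submitters' processing notes name Cell Ranger 3.0.2, Seurat 3.0.0 and mm10. The table tells libraries apart by index and genotype alone, and they are called A to F here.

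Corrected counts were summed per library, expressed in ppm and tested with limma 3.58.1 (R 4.3.3; trended prior, pseudocount 1, mean of at least 5 ppm, two-sided, Benjamini-Hochberg at 0.05), also within clusters with at least 50 cells per library. Cells with and without a gene were compared with library as a block, in libraries with at least 30 such cells. In each such contrast the named genes were the 10 largest rises and 5 largest falls that were called and had the same sign in every library, without receptor segments and Y-linked, mitochondrial, ribosomal and unnamed genes. Alike genes were the 5 with the highest r among those in at least 1% of knockout cells, and genes of the fixed lists could be named. Shares and log2 odds ratios (0.5 added) had exact permutation tests, for which 0.1 is the smallest p for 3 against 3. Scripts were tested on simulated data. Alternatives covered pseudocount, filter, scaling (edgeR 4.0.16 for TMM), cells within 20% of the median depth, other detection minima and leaving out each library. Thinning needs raw counts per gene and was not done. Weighting to a common cluster makeup, the interaction test, and leaving out cluster 3, cells of shared barcodes or libraries with no cell with both genes were added after the data were seen. A few members of the gene lists are not reported here by name.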

Additional observations from a re-analysis of the deposited data

How the results depend on the processing

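No paired analysis was possible because the table's library names carry no replicate number. Csf2 and Csf1 kept their calls over all cells under every pseudocount, filter, scaling, depth, weighting and left-out library tried, with log2 differences of 1.58 to 4.77 and 0.52 to 1.05 on the scale of summed levels. The untested difference of Il3 was 3.19 with a pseudocount of 0.1 ppm. Genes called higher between genotypes numbered 1433 without a filter, and 396 to 1750 with a library left out, and genes called lower 381 to 1396. In Csf2 cells, 717 genes were higher and 364 lower near the median depth, and 706 and 362 with all 6 libraries. In Il3 cells, 98 were higher and 25 lower at a minimum value of 3, 4 and 0 near the median depth (limma; 710 had an unadjusted p under 0.05), and 114 to 792 and 21 to 534 with a library left out (114 and 21 without D, 792 and 534 without E). In Csf1 cells, 1787 were higher near the median depth. Differences in share, in percentage points, were 15.9 for Csf2 at a minimum value of 1 and 8.29, 6.08 and 2.07 at 2, 3 and 10, and 8.97 for Csf1 and 4.09 and 0.792 at 3 and 10. By construction, fewer cells pass a higher minimum. The odds ratio of Csf2 with Il3 was 3.10 near the median depth, 2.42 within clusters and 2.18 to 3.23 with a library left out, and that of Csf2 with Csf1 was 0.31, 0.45 and 0.47 to 0.56. With B left out of the first pair alone, for want of a cell with both, the values were 2.79 and 0.53. Adjusted p-values were then 0.0938 or more (exact sign-flip permutation), and with 5 libraries no unadjusted p can go below 0.0625. In the first pair, keeping only libraries with a cell of both genes also fixes the signs of A and C. The cause of these changes was not tested. Counts called between genotypes in the 6 gene lists moved by at most 1 gene under TMM or median-of-ratios scaling, and of the values of single genes 0 reversed. Wild-type libraries had 8 to 19 cells with Il3, which limits what can be said of it there.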
